A study of Mus musculus with 16 samples.

Results

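Interferon response and major histocompatibility complex (MHC) class I genes were described in astrocytes sorted from the spinal cord and the thalamus of mice. The set held 38 genes of 39171 features in the deposited expression table, matched by gene symbol. It comprised 6 receptor and Janus kinase genes, 5 transcription factor genes, 17 interferon-stimulated genes and 10 genes of class I antigen presentation. The cells came from 4 C57BL/6 mice at postnatal day 15, and every mouse carried 1 modified Il33 allele, a heterozygous mCherry reporter, together with a GFP reporter of the astrocyte gene Aldh1l1. From each mouse and region, astrocytes positive for the IL-33 reporter and astrocytes negative for it were collected by flow sorting. This gave 4 groups of 4 libraries: spinal cord positive, spinal cord negative, thalamus positive and thalamus negative. The labels name no treatment or infection, and all groups shared the reporter alleles. The reporter follows the Il33 locus and not the IL-33 protein, and the sources used here do not give the gating on GFP.

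Interferons are secreted antiviral cytokines. Type I interferons bind a receptor made of the Ifnar1 and Ifnar2 products and interferon gamma binds one made of the Ifngr1 and Ifngr2 products, and both receptors signal through Janus kinases to STAT and IRF transcription factors. These factors bind interferon-stimulated response elements or gamma-activated sites in promoters of interferon-stimulated genes, many of which act against viruses. Interferon also raises MHC class I, in which a heavy chain (H2-K1, H2-D1) pairs with beta-2 microglobulin (B2m) and displays peptides that proteasomes make and the Tap1 and Tap2 transporter carries into the endoplasmic reticulum. Astrocytes carry these receptors and are known to respond to interferon in the infected or inflamed brain.

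The promoters of Ifitm3, Ifitm2, B2m and H2-K1, which had the largest called fold changes among members with a promoter window, are shown with that of Isg15, a classical interferon target, to place the response element letters beside the measured values; Ifi27 has no window in the table. The stretches are RefSeq promoter windows (GRCm38.p6), each read 5' to 3' on its gene's strand and ending before the first annotated exon base. Capitals mark matches to the core of the interferon-stimulated response element, written GAAANNGAA and searched on both strands; overlapping matches are run together. The Ifitm3 stretch is chr7:141010771-141010904 on the minus strand, that of Ifitm2 is chr7:140955988-140956121 on the minus strand, and that of B2m is chr2:122147527-122147685 on the plus strand. The H2-K1 stretch is chr17:34000348-34000507 on the minus strand and that of Isg15 is chr4:156200819-156200978 on the minus strand.
Ifitm3: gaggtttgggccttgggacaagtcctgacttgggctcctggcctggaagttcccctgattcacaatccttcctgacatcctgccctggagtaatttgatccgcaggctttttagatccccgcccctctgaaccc
Ifitm2: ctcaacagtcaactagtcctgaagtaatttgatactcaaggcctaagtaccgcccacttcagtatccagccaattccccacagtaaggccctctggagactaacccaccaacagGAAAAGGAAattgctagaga
B2m: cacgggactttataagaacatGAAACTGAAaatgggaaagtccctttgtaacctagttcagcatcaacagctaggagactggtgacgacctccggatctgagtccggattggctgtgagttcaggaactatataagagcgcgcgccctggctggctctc
H2-K1: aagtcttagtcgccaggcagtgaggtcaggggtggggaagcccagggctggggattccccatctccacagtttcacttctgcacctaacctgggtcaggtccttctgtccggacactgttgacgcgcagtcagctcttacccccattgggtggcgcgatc
Isg15: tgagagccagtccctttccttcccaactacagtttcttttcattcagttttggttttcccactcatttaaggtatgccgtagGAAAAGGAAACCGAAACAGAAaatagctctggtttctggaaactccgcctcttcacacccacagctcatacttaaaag
The Ifitm2 match began 46 bases and the B2m match 139 bases before the RefSeq start, and Isg15 had matches at 78, 72 and 66 bases. These exact letters were not in the stretches of Ifitm3 and H2-K1. The search covered this form only, and the H2-K1 stretch holds the similar letters tttcacttc unmarked. A missing match therefore does not show that a response element is absent. Of the 33 members with a window, 12 (36.4%) held the core in the 250 bases before the start, against 8.18% of 27025 genes with a window. The gamma-activated site letters, TTCNNNGAA on both strands, were in 5 of 33 members (15.2%) and in 8.13% of all genes. These matches are a description of letters and do not show binding.

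Levels are given in FPKM, a fragment count corrected for transcript length and for library size, so they can be compared between genes. The set ranged from genes at or near 0 to B2m, which lay between 79.7 and 521 FPKM. H2-K1, the classical class I heavy chain gene H-2K, lay between 9.35 and 37.4 FPKM, and H2-D1, the other heavy chain gene, between 1.56 and 8.09 FPKM. Receptor and kinase genes were present in all 16 libraries, with Jak1 at 18.7 to 45.6 FPKM, Ifnar1 at 8.95 to 46.8 FPKM and Ifnar2 at 1.95 to 54.1 FPKM. Classical interferon-stimulated genes were low in every group. Isg15, which encodes a ubiquitin-like modifier, averaged 1.89 ± 0.373 FPKM in positive against 2.03 ± 0.546 FPKM in negative spinal cord libraries, and 2.21 ± 0.789 FPKM in positive against 1.68 ± 1.28 FPKM in negative thalamus libraries (SD, n = 4 each). Its 3 overlapping promoter matches thus stood beside group means close to 2 FPKM with overlapping ranges. The antiviral genes Rsad2 and Bst2 stayed at or below 1.61 and 2.90 FPKM, and Usp18, which encodes the protease that removes Isg15 from proteins, at or below 0.399 FPKM. Ifi27, Ifitm3 and Ifitm2 were the 3 interferon-stimulated members that reached 20 FPKM in a library.

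**Figure D1:**
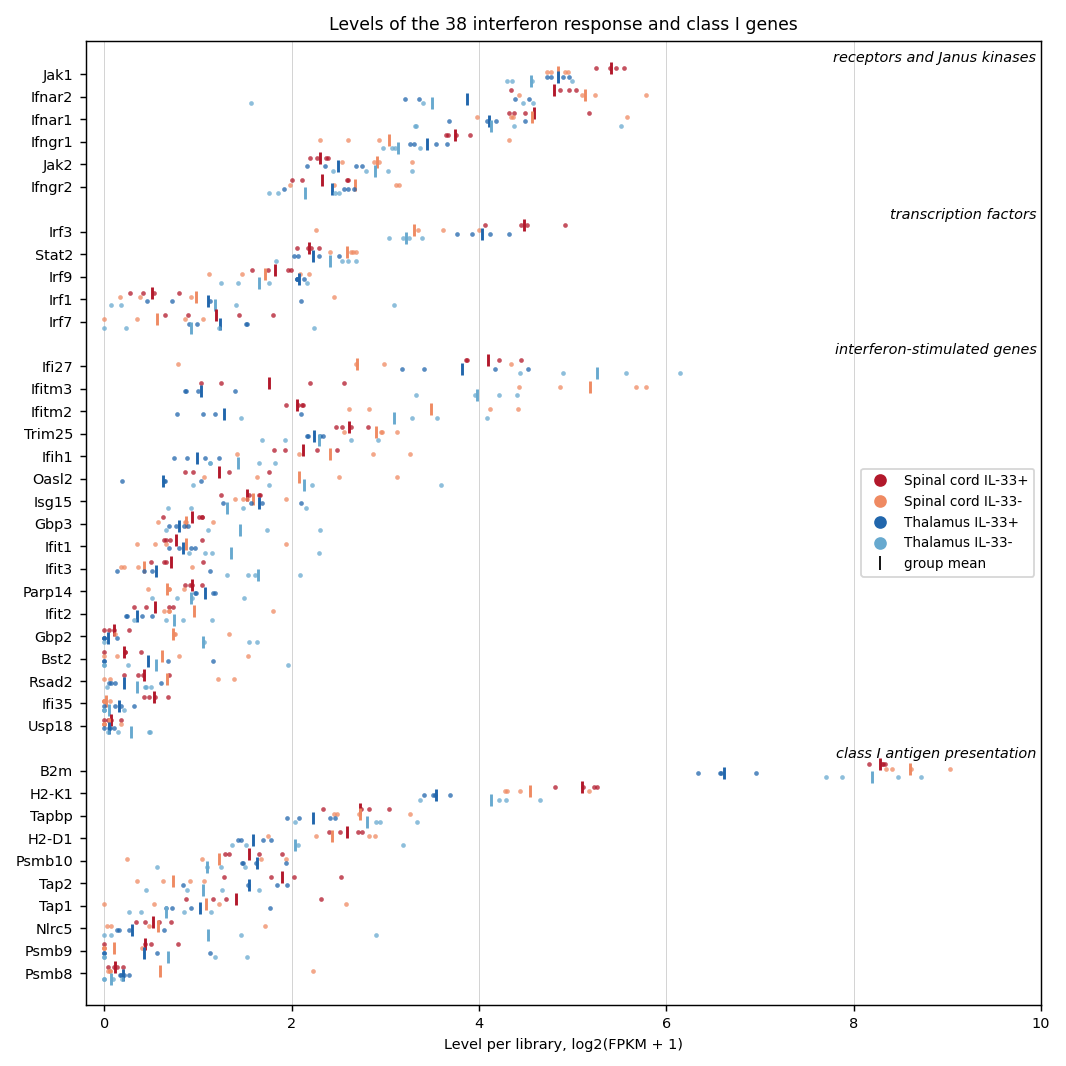
Level of each of the 38 genes in every library, as log2(FPKM + 1), ordered by role and by mean level within a role. Each dot is a library, and vertical bars are means of the 4 log2 values of a group. B2m lies to the right of every other gene, with its lowest dots close to the highest Ifi27 dot. Most interferon-stimulated genes lie near the left edge.

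The 16 libraries had 13260 to 14731 features at 1 FPKM or more, and no pair held identical values (0 pairs). Their summed FPKM ran from 984986 to 2344483, with the 2 highest sums in the negative libraries of mouse 1. Read depth is unknown. Il33 itself did not pass the test between reporter gates, at 27.9 ± 3.49 FPKM in positive against 24.6 ± 7.93 FPKM in negative spinal cord libraries (limma adjusted p = 0.559), and at 27.4 ± 3.41 FPKM and 18.6 ± 6.01 FPKM in positive and negative thalamus libraries (limma adjusted p = 0.0736). The summed FPKM of 12 astrocyte markers was 13600 to 15000 in positive and 9110 to 10900 in negative spinal cord libraries, and 6220 to 7580 in positive and 5790 to 7970 in negative thalamus libraries. The sums hide opposite changes of single astrocyte markers. In positive spinal cord libraries 5 were higher and 2 lower. In positive thalamus libraries 3 were higher (Gja1, Gjb6, Fgfr3) and 3 lower (Gfap, S100b, Aldoc). Gfap there had a log2 fold change of -3.44 (limma adjusted p = 4.71e-06). Markers of other cell types separated the gates. Summed oligodendrocyte markers were at 155 to 166 FPKM in positive and 3250 to 3450 FPKM in negative spinal cord libraries, and at 75.9 to 111 and 435 to 920 FPKM in the same order in the thalamus. Ependymal markers were at 3.02 to 5.99 and 75.7 to 97.3 FPKM in the spinal cord and at 3.43 to 5.05 and 249 to 456 FPKM in the thalamus, and endothelial markers at 3.83 to 5.38 and 35.1 to 56.4 FPKM and at 4.33 to 5.88 and 13.1 to 19.5 FPKM, positive before negative each time. Mural cell markers were at 12.5 to 15.3 and 45.3 to 107 FPKM in the spinal cord and at 10.4 to 15.2 and 75.8 to 112 FPKM in the thalamus. Neuronal markers were at 18.8 to 28.4 and 35.3 to 51.2 FPKM in the spinal cord. In the thalamus they were at 9.33 to 14.5 and 24.5 to 81.2 FPKM. Oligodendrocyte precursor sums separated the gates in the spinal cord, at 220 to 268 and 454 to 506 FPKM, and overlapped in the thalamus. Microglial sums overlapped between all groups, from 20.7 to 42.6 FPKM, with C1qa listed at 0 in 9 of 16 libraries. Lymphocyte markers stayed at or below 3.94 FPKM in sum, and Cd3g and Klrb1c were listed at 0 in all 16 libraries. In such sorted pools, fewer cells of a type and less RNA per cell cannot be told apart.

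**Figure D2:**
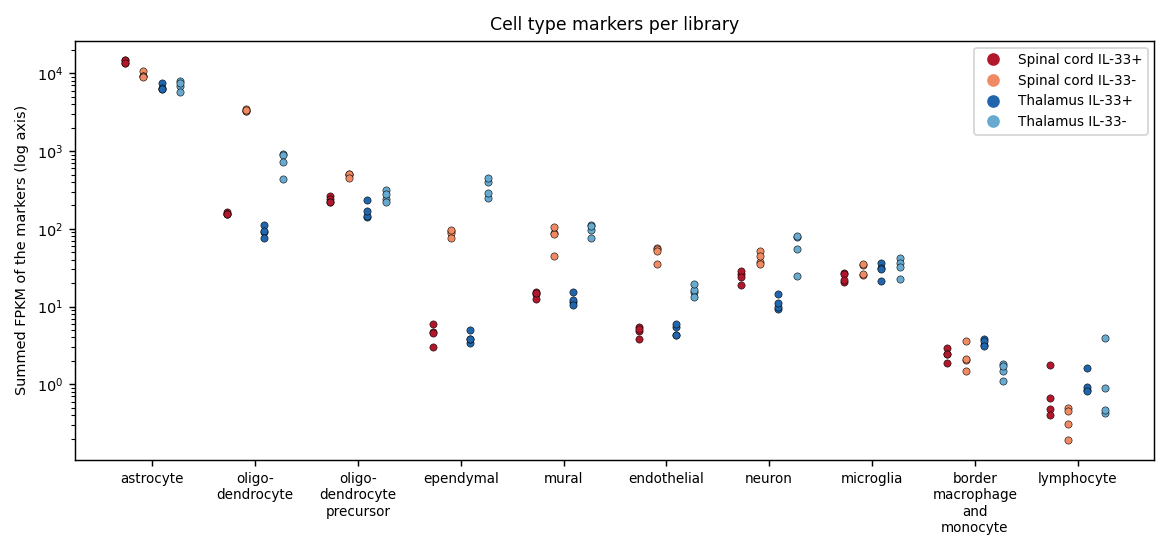
Summed FPKM of fixed marker lists for 10 cell types in each library, on a log axis, with positive libraries left of negative ones within a region. Each dot is a library. Oligodendrocyte, ependymal, mural, endothelial and neuronal sums separate positive from negative libraries in both regions, while the microglial sums of the 4 groups overlap.

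Expression was tested with limma on log2(FPKM + 1) over the 16340 features that reached 1 FPKM in 4 or more libraries, with calls at a Benjamini-Hochberg adjusted p under 0.05. Fold changes of low genes come out too small on this scale. Of the 38 genes, 30 were tested. Ifit2, Ifi35, Usp18, Rsad2, Bst2, Psmb8, Psmb9 and Nlrc5 were too low, so 5 interferon-stimulated and 3 class I genes have levels only. Another 5 members, Irf1, Ifit1, Ifit3, Parp14 and Gbp2, passed the filter only with the libraries of their highest group, so some difference was built into their passing. In the spinal cord, 3 tested members (Jak1, Irf3, Tap2) were higher and 1 (Ifitm3) was lower in positive libraries, against 9.04% of all features higher and 10.5% lower. In the thalamus none (0 of 30) was higher and 6 were lower, namely Ifitm3, B2m, Ifitm2, Oasl2, Ifit3 and Gbp2, against 11.6% of all features higher and 13.6% lower. Over the mean of both regions 3 members were higher and 6 lower, against 19.7% and 18.9% of features. Only B2m was called for the difference between the regions in that contrast, where 1.13% of features were higher and 1.43% lower. Between regions, B2m, H2-K1 and Jak1 were higher in positive spinal cord than in positive thalamus libraries and 0 members were lower, against 4.22% and 1.88% of features. In negative libraries 0 members were higher and 2, Ifit3 and Ifi27, were lower in the spinal cord, against 5.27% and 4.54%. Called members made up 13.3%, 20%, 30%, 3.33%, 10% and 6.67% of those tested in these 6 comparisons, and called features 19.6%, 25.2%, 38.6%, 2.56%, 6.1% and 9.81% of all features tested. The share of members was thus below the background in 4 comparisons and above it in 2, the difference between regions and the region comparison of positive libraries. The median log2 fold change over tested members was 0.02 in the spinal cord and -0.13 in the thalamus for positive against negative, where all features had medians of 0.09 and 0.06. It was 0.33 for positive spinal cord against positive thalamus libraries and 0.11 for the negative ones, where all features had a median of 0.

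**Figure D3:**
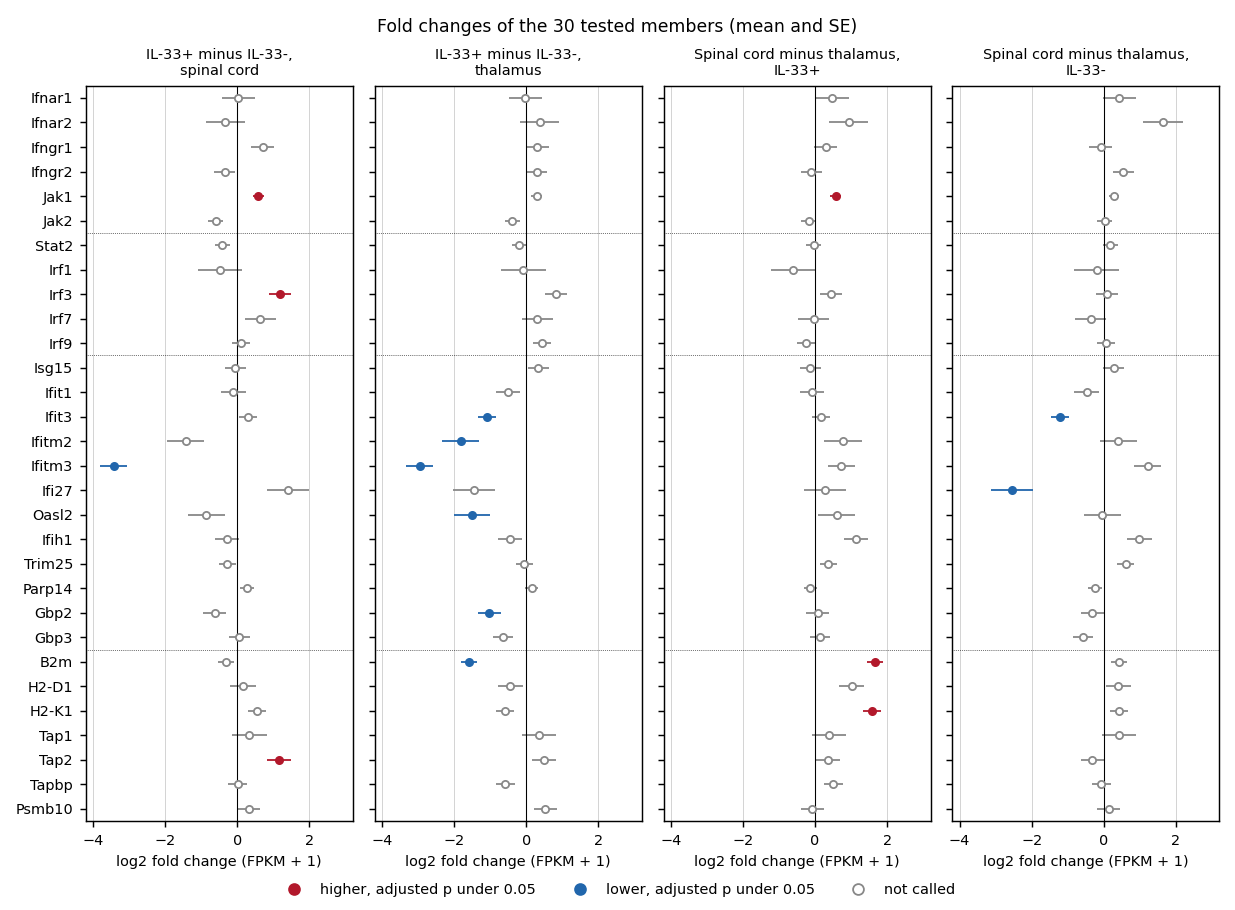
Log2 fold change (FPKM + 1 scale) of the 30 tested members in 4 comparisons, grouped by role, with horizontal bars for the SE. Filled red points passed the test as higher, filled blue points as lower, and open points were not called. Ifitm3 is the only gene called lower in both positive against negative panels, and B2m and H2-K1 stand out to the right in the panel of positive libraries.

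Among receptors and kinases, Jak1 was higher in positive spinal cord astrocytes. Jak1 encodes a kinase shared by type I and type II interferon receptors and by many cytokine receptors (chromosome 4, 101152367 to 101265282, minus strand, GRCm38). It was at 37, 43.1, 45.6 and 41.1 FPKM in the positive spinal cord libraries of mice 1 to 4 against 29.8, 29.1, 25.4 and 26.3 FPKM in those of the negative gate. It was at 25.4, 26.3, 30.2 and 28.8 FPKM in positive against at 22.7, 18.7, 30.9 and 19.4 FPKM in negative thalamus libraries. The positive spinal cord libraries thus lay above all 12 others. The log2 fold change was 0.58 ± 0.15 (SE) for positive against negative in the spinal cord (limma adjusted p = 0.0162) and 0.57 ± 0.15 for positive spinal cord against positive thalamus (limma adjusted p = 0.0386). With the mouse as a block in the fit, the second adjusted p was 0.0521. The first was lost without the positive spinal cord library of mouse 3 (limma adjusted p = 0.0546), and the second without any 1 of the 8 positive libraries, at limma adjusted p = 0.0569 to 0.127. Over all alternatives the adjusted p ran from 0.00455 to 0.102 for the first and from 0.0043 to 0.205 for the second. In the thalamus the gate difference was 0.29 ± 0.15 (limma adjusted p = 0.189). Jak1 shares exon bases with Raver2 on the other strand, and the sources used here do not say whether counting used strand. Raver2 averaged 12.8 ± 0.825 FPKM in positive spinal cord and 20.7 ± 2.65 FPKM in positive thalamus libraries, an order opposite to that of Jak1 that did not pass the test (limma adjusted p = 0.259).

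Jak2, which encodes the kinase that interferon gamma and many other cytokines use, was lower in positive libraries over the mean of both regions. It was at 4.22, 3.58, 4.17 and 3.83 FPKM in positive against 6.60, 8.74, 6.36 and 4.79 FPKM in negative spinal cord libraries of mice 1 to 4. It was at 4.12, 5.73, 5.45 and 3.46 FPKM in positive against 5.94, 8.74, 7.12 and 4.41 FPKM in negative thalamus libraries. The positive library was the lower one in all 4 mice in both regions, although the ranges overlapped in the thalamus. The mean log2 fold change was -0.50 ± 0.15 (SE, limma adjusted p = 0.0183), and neither region passed alone, with -0.60 ± 0.21 in the spinal cord (limma adjusted p = 0.0633) and -0.39 ± 0.21 in the thalamus (limma adjusted p = 0.194). The 4 receptor genes Ifnar1, Ifnar2, Ifngr1 and Ifngr2 passed in none of the 6 comparisons. Their group means were 3.54 to 36.1 FPKM, and their libraries scattered widely, as Ifnar2 did in negative thalamus libraries at 1.95, 9.56, 21.1 and 22.9 FPKM.

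Of the 5 transcription factor genes, Irf3 was the most abundant and the one that was called. Irf3 encodes a constitutively made factor that nucleic acid sensors activate and that turns on type I interferon genes (chromosome 7, 44997648 to 45002848, plus strand). It was at 20.8, 29.1, 21.8 and 15.7 FPKM in positive against at 11.2, 3.77, 15 and 9.17 FPKM in negative spinal cord libraries of mice 1 to 4. It was at 12.6, 19.0, 16.4 and 14.2 FPKM in positive against at 8.50, 9.46, 8.12 and 7.19 FPKM in negative thalamus libraries. Positive libraries were above negative ones without overlap in each region. Irf3 had a log2 fold change of 1.18 ± 0.30 (SE) in the spinal cord (limma adjusted p = 0.0124), 0.82 ± 0.30 in the thalamus (limma adjusted p = 0.0586) and 1.00 ± 0.21 over both (limma adjusted p = 0.00205). Without mouse 2 the spinal cord value was 0.69 (limma adjusted p = 0.0567), and with only the spinal cord groups in the fit the limma adjusted p was 0.0578, the highest of its alternatives, which began at 0.00428. Exons of Irf3 overlap those of Bcl2l12 on the other strand, so reads of the pair may not be separable. Bcl2l12 averaged 3.82 ± 0.762 FPKM in positive against 1.07 ± 0.389 FPKM in negative spinal cord libraries, a log2 fold change of 1.22 ± 0.41 (limma adjusted p = 0.0491), and it was 3.30 ± 0.461 and 4.59 ± 3.22 FPKM in positive and negative thalamus libraries. Stat2 and Irf9, 2 parts of the factor that type I interferon activates, had group means of 3.54 to 5.05 FPKM and 2.23 to 3.22 FPKM and were not called. Irf7, an interferon-induced factor, averaged 0.538 to 1.41 FPKM, and Irf1 averaged 0.429 to 2.33 FPKM with a negative thalamus library at 7.5 FPKM. Neither was called.

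Of the interferon-induced transmembrane genes, Ifitm3 had the largest change of the set between reporter gates on the log2(FPKM + 1) scale. Ifitm3 encodes a membrane protein that restricts the entry of enveloped viruses (chromosome 7, 141009586 to 141010770, minus strand), and cells of blood vessels are among those known to express it strongly. It was at 3.58, 1.04, 4.87 and 1.36 FPKM in positive against at 28.0, 20.5, 54.1 and 49.9 FPKM in negative spinal cord libraries of mice 1 to 4. In the thalamus it was at 1.62, 0.817, 0.991 and 0.824 FPKM in positive against at 9.04, 17.6, 14.5 and 20.1 FPKM in negative libraries. Every positive library was below every negative one. The means were 2.71 ± 1.83 and 38.1 ± 16.4 FPKM in positive and negative spinal cord libraries and 1.06 ± 0.378 and 15.3 ± 4.76 FPKM in positive and negative thalamus libraries (n = 4, SD), so negative libraries held 14 and 14.4 times the mean level. Ifitm3 fell by 3.43 ± 0.38 (SE) on the log2 scale in the spinal cord (limma adjusted p = 1.63e-05) and by 2.95 ± 0.38 in the thalamus (limma adjusted p = 6.95e-05), and kept both calls in all 26 alternative settings. The difference between these contrasts was -0.48 ± 0.53 (limma adjusted p = 0.752).

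Ifitm2, a neighbouring gene of the same family (140954837 to 140955987, minus strand), was at 3.35, 2.82, 3.18 and 3.32 FPKM in positive against at 6.10, 5.11, 16.3 and 20.3 FPKM in negative spinal cord libraries. It was at 0.715, 1.07, 3.29 and 1.26 FPKM in positive against 1.74, 8.75, 10.7 and 15.9 FPKM in negative thalamus libraries. Positive libraries were lower in every mouse of both regions, and only in the thalamus did the ranges overlap. Its log2 fold change came to -1.82 ± 0.52 (SE) in the thalamus (limma adjusted p = 0.0198), -1.43 ± 0.52 in the spinal cord (limma adjusted p = 0.0672) and -1.62 ± 0.37 over both (limma adjusted p = 0.00321). The thalamus call was lost without the positive library of mouse 1 (limma adjusted p = 0.0566) and without the negative library of mouse 3 or 4 (limma adjusted p = 0.0515 and 0.0596), within a range of 0.00125 to 0.125 over all alternatives. The 2 genes are close in sequence, and the sources used here do not say how shared reads were treated. Beside these values, endothelial markers were lower in positive libraries for 10 of 12 in the spinal cord and 3 of 12 in the thalamus. Mural markers were lower for 3 and 4 of 7 tested, and ependymal markers for 9 of 9 in both regions. Oligodendrocyte markers were lower for 10 and 9 of 10, precursor markers for 4 of 7 in both regions, and microglial markers for 1 of 8 in each. Neuronal markers were lower for 0 and 2 of 5, and 3 of these 5 passed the filter only with the negative thalamus libraries. Among 12 astrocyte markers, 5 were higher and 2 lower in the spinal cord, and 3 higher and 3 lower in the thalamus. Of the 12 endothelial genes, 10 passed the filter only with the negative spinal cord libraries. So did 2 of 7 precursor and 1 of 10 oligodendrocyte genes, so these spinal cord counts were partly built in. Passing only with the negative thalamus libraries were Tmem212 (ependymal), Kcnj8 (mural) and Aif1 (microglial). The thalamus counts of these lists were thus partly built in too. The part of these cell types in the Ifitm2 and Ifitm3 differences was not tested.

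Oasl2, Ifit3 and Gbp2 were also lower in positive thalamus libraries, at low levels that scattered between mice. Ifit3 and Gbp2 passed the filter only with the negative thalamus libraries. Their differences from that group, and the calls below, were thus partly built in. Oasl2, of the oligoadenylate synthetase-like family, was at 1.52, 0.809, 2.37 and 0.919 FPKM in positive against 4.66, 7.73, 2.08 and 1.09 FPKM in negative spinal cord libraries, and at 1.04, 0.559, 0.561 and 0.140 FPKM in positive against 3.66, 11.1, 2.38 and 0.922 FPKM in negative thalamus libraries. Its ranges overlapped in both regions. The thalamus log2 fold change of -1.5 ± 0.51 (SE, limma adjusted p = 0.0436) lost its call in 16 of 25 alternative settings. These included leaving out any positive thalamus library (limma adjusted p = 0.056, 0.0791, 0.083 and 0.109 without mice 1 to 4), the negative one of mouse 1, 2 or 3 (0.0677, 0.115 and 0.0534) or any positive spinal cord library (0.0503 to 0.0555), and the whole range was 0.0147 to 0.128. Ifit3, which encodes an antiviral tetratricopeptide protein, was at 1.18, 0.343, 0.420 and 0.0991 FPKM in positive against 1.90, 2.04, 1.47 and 3.26 FPKM in negative thalamus libraries. It was at 0.580, 0.409, 1.07 and 0.558 FPKM in positive against at 0.280, 0.132, 0.906 and 0.158 FPKM in negative spinal cord libraries, so the highest library outside the negative thalamus group, at 1.18 FPKM, lay below all 4 of that group. Ifit3 fell by 1.09 ± 0.25 (SE) on the log2 scale in positive against negative thalamus libraries (limma adjusted p = 0.00546) and by 1.22 ± 0.25 in negative spinal cord against negative thalamus libraries (limma adjusted p = 0.00528). The first call was lost without mouse 4 (limma adjusted p = 0.0819), and the second without mouse 2 or 4 (0.063 and 0.0653) or with only the compared groups in the fit (0.0572). Their ranges over all alternatives were 0.00245 to 0.0819 and 0.00289 to 0.0653. The difference of the gate contrasts between regions was 1.38 ± 0.35 (limma adjusted p = 0.0527). Gbp2, an interferon-inducible GTPase gene, was called lower in positive thalamus libraries (-1.02 ± 0.31, limma adjusted p = 0.0271), but no group averaged above 1.27 FPKM, and the call was lost without the positive thalamus library of mouse 1, 2 or 3 (limma adjusted p = 0.0575, 0.0572 and 0.0608, and 0.000906 to 0.0717 over all alternatives).

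Ifi27, an interferon-induced gene of a mitochondrial protein, had the highest level of the interferon-stimulated members and gate differences of opposite sign in the regions, neither of which passed the test. It was at 17.5, 13.5, 20.8 and 13.6 FPKM in positive against 5.41, 0.722, 6.94 and 19.2 FPKM in negative spinal cord libraries, and at 17.0, 22, 9.66 and 8.07 FPKM in positive against 46.3, 69.9, 20.6 and 28.7 FPKM in negative thalamus libraries. Negative spinal cord libraries were below negative thalamus libraries without overlap, by 2.56 ± 0.58 (SE) on the log2 scale (limma adjusted p = 0.0113). That call was lost without mouse 1 or 2 (limma adjusted p = 0.0885 and 0.065) and with only these groups in the fit (0.155, the highest of its alternatives, which began at 0.00197). The gate contrasts were 1.40 ± 0.58 in the spinal cord (limma adjusted p = 0.111) and -1.44 ± 0.58 in the thalamus (limma adjusted p = 0.0861), and their difference was 2.84 ± 0.83 (limma adjusted p = 0.0944). In the negative libraries, ependymal markers were lower in the spinal cord than in the thalamus for 7 of 9 genes, while 8 of 12 endothelial and 10 of 10 oligodendrocyte markers were higher. Of the 12 endothelial and 10 oligodendrocyte markers, 10 and 1 passed the filter only with the negative spinal cord libraries. Of the 9 ependymal markers, 1 passed only with the negative thalamus libraries. These counts were thus partly built in. The part of these cell types in the Ifi27 and Ifit3 differences was not tested. Ifih1, which encodes the RNA sensor MDA5, averaged 3.43 ± 0.956 FPKM in positive spinal cord and 0.992 ± 0.294 FPKM in positive thalamus libraries (n = 4, SD). Its ranges there did not overlap, but the difference of 1.14 ± 0.34 (SE) did not pass (limma adjusted p = 0.063). Isg15, Ifit1, Trim25, Parp14 and Gbp3 were called in none of the 6 comparisons.

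Of 7 tested class I members, B2m and H2-K1 were higher in positive spinal cord than in positive thalamus libraries and the other 5 were not called. B2m, the light chain gene (chromosome 2, 122147686 to 122153083, plus strand), was at 322, 315, 317 and 285 FPKM in positive spinal cord libraries of mice 1 to 4 and at 123, 94.3, 94.7 and 79.7 FPKM in positive thalamus libraries. The 4 positive spinal cord libraries were close to each other and about 3.16 times as high in the mean as the positive thalamus libraries (309 ± 16.6 and 97.9 ± 18 FPKM, SD, n = 4). Negative libraries were at 521, 390, 338 and 323 FPKM in the spinal cord and at 419, 208, 353 and 233 FPKM in the thalamus, with overlapping ranges. B2m was higher in positive spinal cord than positive thalamus libraries by 1.67 ± 0.22 (SE) on the log2 scale (limma adjusted p = 0.000291), and this call held in all 26 alternative settings. Within the thalamus B2m fell by 1.58 ± 0.22 on the log2 scale in positive against negative libraries (limma adjusted p = 0.000161), also in 26 of 26 settings, so the positive thalamus group stood below the other 3. In the same positive thalamus libraries ependymal (9 of 9), oligodendrocyte (9 of 10), oligodendrocyte precursor (4 of 7) and mural markers (4 of 7) were lower. Neuronal (2 of 5), endothelial (3 of 12) and microglial markers (1 of 8) were lower there too. Among 12 astrocyte markers 3 were higher and 3 lower, and the border macrophage marker Cd163 was higher (1 of 1 tested). Of the 5 neuronal genes, 3 passed the filter only with the negative thalamus libraries. So did Tmem212 (ependymal), Kcnj8 (mural) and Aif1 (microglial), so the counts of these lists were partly built in. The part of these cell types in this B2m difference was not tested. Within the spinal cord the contrast was -0.32 ± 0.22 (limma adjusted p = 0.347). The difference of the gate contrasts was 1.26 ± 0.32 (limma adjusted p = 0.0495), which was called in 6 of 25 alternative settings, with adjusted p from 0.0216 to 0.362. It was lost without 12 of the 16 libraries in turn, at limma adjusted p = 0.0544 to 0.112, the exceptions being the positive thalamus library of mouse 1, the negative thalamus libraries of mice 2 and 4 and the negative spinal cord library of mouse 1.

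H2-K1 (chromosome 17, 33996017 to 34000347, minus strand) was at 33.5, 37.4, 36.4 and 27.0 FPKM in positive spinal cord and at 11.9, 10.4, 10.5 and 9.67 FPKM in positive thalamus libraries, with a ratio of the means of 3.16. It was at 18.6, 35.2, 18.4 and 20.7 FPKM in negative spinal cord and 9.35, 24.1, 17.5 and 18.5 FPKM in negative thalamus libraries. Positive spinal cord libraries exceeded all others except the negative spinal cord library of mouse 2. The log2 difference between positive spinal cord and positive thalamus libraries was 1.57 ± 0.25 (SE, limma adjusted p = 0.0015, called in 26 of 26 alternative settings). Between gates H2-K1 differed by 0.55 ± 0.25 in the spinal cord (limma adjusted p = 0.147) and by -0.59 ± 0.25 in the thalamus (limma adjusted p = 0.101). H2-D1 had the same order in positive libraries, at 5.06 ± 0.681 FPKM in the spinal cord and 2.02 ± 0.365 FPKM in the thalamus (SD, n = 4), with no overlap, but its difference of 1.01 ± 0.35 (SE) did not pass (limma adjusted p = 0.12). Class I heavy chain genes are near-identical copies in part, so the split of reads between H2-K1 and H2-D1 is uncertain. In the same comparison of positive libraries, 0 of 12 endothelial and 0 of 9 ependymal markers were called. The mural and microglial lists had 0 of 7 and 0 of 8 called. Higher in the spinal cord were 1 of 10 oligodendrocyte and 1 of 7 oligodendrocyte precursor markers. Among 12 astrocyte markers, 7 were higher and 1 lower. Of the 12 endothelial genes, 10 passed the filter only with the negative spinal cord libraries, a group outside this comparison. In positive libraries the endothelial markers summed to 3.83 to 5.88 FPKM and the ependymal ones to 3.02 to 5.99 FPKM. At such levels the test could call few differences, so these counts of 0 say little. The sums of endothelial, ependymal, mural and microglial markers overlapped between the positive groups. Oligodendrocyte precursor sums overlapped too, at 220 to 268 FPKM in positive spinal cord and 144 to 233 FPKM in positive thalamus libraries. Oligodendrocyte sums were at 155 to 166 FPKM in positive spinal cord and 75.9 to 111 FPKM in positive thalamus libraries, without overlap. Neuronal sums were at 18.8 to 28.4 FPKM in positive spinal cord and 9.33 to 14.5 FPKM in positive thalamus libraries, and border macrophage and monocyte sums at 1.90 to 2.91 and 3.09 to 3.83 FPKM in the same order, also without overlap, with 0 of 5 and 0 of 1 tested genes called. The part of these markers and of the astrocyte markers in the class I difference was not tested.

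Of the genes that make and load peptides, Tap2 was called. Tap2, a subunit gene of the peptide transporter (chromosome 17, 34203527 to 34216321, plus strand), was at 1.43, 4.74, 3.07 and 2.42 FPKM in positive against at 0.272, 1.09, 0.545 and 0.877 FPKM in negative spinal cord libraries. It was at 2.87, 0.792, 1.89 and 2.59 FPKM in positive against 2.14, 0.357, 0.836 and 1.39 FPKM in negative thalamus libraries. The positive library was higher in all 4 mice of both regions, and the ranges overlapped in the thalamus only. Tap2 had a log2 fold change of 1.16 ± 0.33 (SE) in the spinal cord (limma adjusted p = 0.0218), 0.49 ± 0.33 in the thalamus (limma adjusted p = 0.297) and 0.82 ± 0.23 over both (limma adjusted p = 0.012). The spinal cord call was lost without the positive library of mouse 2 or 3 (limma adjusted p = 0.0736 and 0.0567) and without the negative library of mouse 1 (0.059), within a range of 0.0142 to 0.143 over all alternatives. Tap2 overlaps predicted genes on the other strand. Tap1, its partner, averaged 1.87 ± 1.42 FPKM in positive against 1.69 ± 2.26 FPKM in negative spinal cord libraries and was not called, nor were Tapbp, the gene of tapasin, at group means of 3.73 to 6.33 FPKM, and Psmb10, an immunoproteasome subunit gene, at 1.20 to 2.11 FPKM. The other immunoproteasome genes Psmb8 and Psmb9 had group means of 0.0519 to 0.949 FPKM and 0.0802 to 0.783 FPKM. Nlrc5, the class I transactivator gene, averaged 0.435 ± 0.162 FPKM in positive against 0.684 ± 1.07 FPKM in negative spinal cord libraries, and 0.241 ± 0.213 FPKM in positive against 2.06 ± 3.03 FPKM in negative thalamus libraries. Its negative thalamus mean rested on the library of mouse 1, at 6.43 FPKM.

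**Figure D4:**
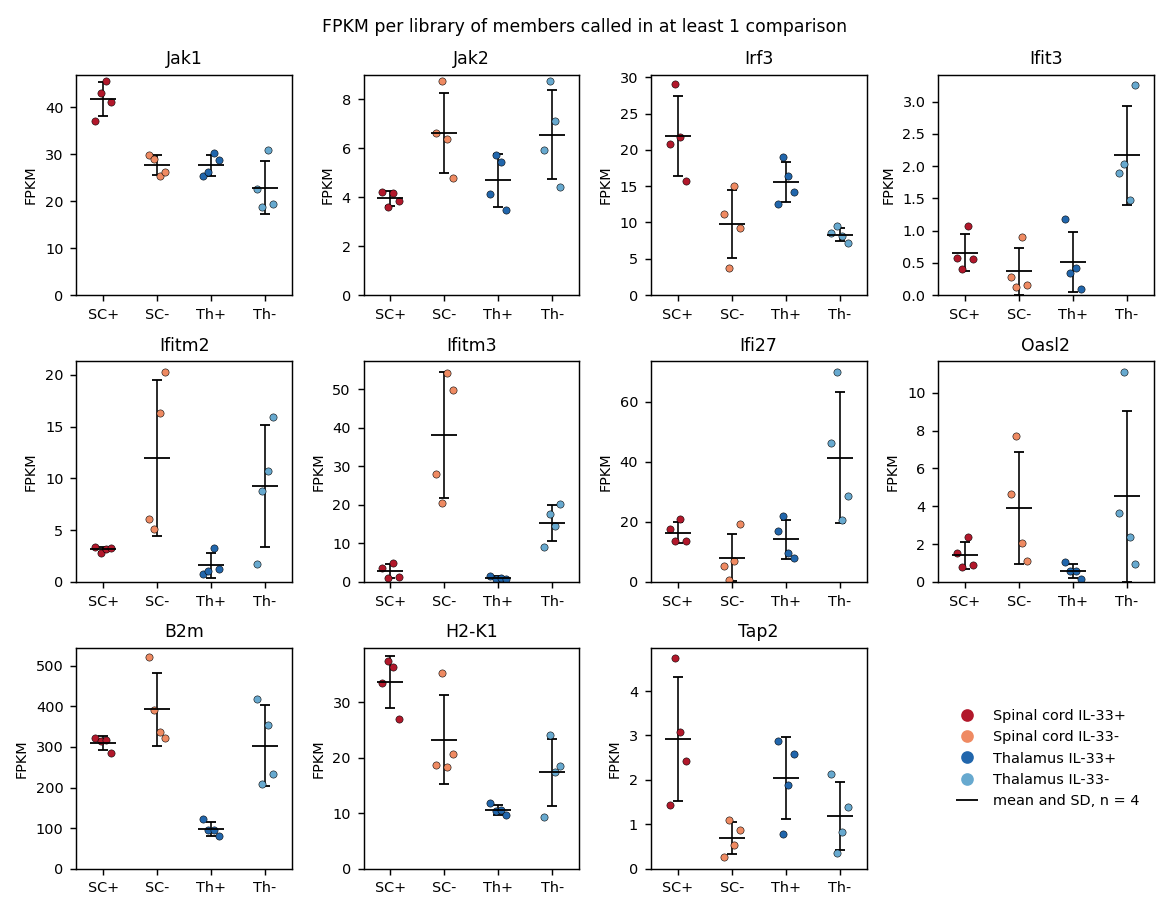
FPKM of the 11 members that were called and averaged at least 2 FPKM in a group, with 1 dot per library and bars for the mean and SD (n = 4). SC is spinal cord, Th is thalamus, and + and - are the reporter gates. B2m and H2-K1 have their lowest means in Th+, and Ifitm3 is high only in the SC- and Th- libraries.

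Other genes of the pathway were read from lists fixed beside the members. None of 10 interferon ligand genes reached the filter (0 tested). Ifnb1 was listed at 0 in all 16 libraries, and Ifnk, named after its values were seen, reached 6.74 FPKM in a negative spinal cord library. Of 9 tested nucleic acid sensor and adaptor genes, 1 was higher in positive spinal cord libraries and 2 in positive thalamus libraries, with 0 lower. The shares called, 11.1% and 22.2%, were below the 19.6% and 25.2% of all features. Tlr3, the receptor gene for double-stranded RNA, averaged 69.2 ± 3.33 FPKM in positive against 30.9 ± 9.08 FPKM in negative spinal cord libraries (n = 4, SD), a log2 fold change of 1.18 ± 0.24 (SE, limma adjusted p = 0.00309). Ddx58, which encodes the RNA sensor RIG-I, averaged 61.8 ± 4.52 FPKM in positive against 33.6 ± 12.9 FPKM in negative thalamus libraries, a change of 0.93 ± 0.25 (limma adjusted p = 0.0153, lost without mouse 3 or 4 at 0.0571 and 0.118, and 0.00298 to 0.118 over all alternatives). Both had higher FPKM than Ifih1 in every group. Of 8 tested signalling and feedback genes none (0) was called in any comparison, where 2.56% to 38.6% of all features were called.

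Among 32 tested genes of a list of 60 other interferon-stimulated genes, 3 were higher and 3 lower in positive spinal cord libraries, and 0 higher and 2 lower in positive thalamus libraries. The shares called, 18.8% and 6.25%, stood beside 19.6% and 25.2% of all features. In the spinal cord Ifitm1, another gene of the transmembrane family, averaged 0.132 ± 0.107 FPKM in positive against 3.07 ± 2.98 FPKM in negative libraries, and Lgals9, a galectin gene, 0.465 ± 0.277 and 2.72 ± 1.61 FPKM in positive and negative libraries. Both passed the filter only with the negative spinal cord libraries, so their places among the 3 lower genes were partly built in and their levels are a description. Trim30a averaged 5.46 ± 1.45 and 0.938 ± 1.01 FPKM in positive and negative spinal cord libraries (1.84 ± 0.51, limma adjusted p = 0.0204, lost in 7 of 26 settings). In the thalamus Psme1, a proteasome activator gene, averaged 32.3 ± 2.46 FPKM in positive against 105 ± 62.8 FPKM in negative libraries (-1.43 ± 0.38, limma adjusted p = 0.0133). That call was lost without mouse 2, 3 or 4 (limma adjusted p = 0.0842, 0.0605 and 0.11) and with only the compared groups in the fit (0.0635), within a range of 0.000473 to 0.11 over all alternatives. Cmpk2, a nucleotide kinase gene, followed the order of B2m, at 2.80 ± 0.516 FPKM in positive spinal cord, 3.03 ± 0.675 FPKM in negative spinal cord, 0.451 ± 0.0562 FPKM in positive thalamus and 2.58 ± 1.07 FPKM in negative thalamus libraries. It was lower in positive thalamus than in negative thalamus libraries (-1.25 ± 0.21, limma adjusted p = 0.000721) and higher in positive spinal cord than in positive thalamus libraries (1.38 ± 0.21, limma adjusted p = 0.00103). Of 16 tested other class I genes, 0 were called in the spinal cord and 1 was higher and 1 lower in positive thalamus libraries, shares of 0% and 12.5% beside the same 19.6% and 25.2%. The lower one was Mr1, which presents vitamin metabolites, at 7.66 ± 1.51 FPKM in positive against 17.5 ± 6.18 FPKM in negative thalamus libraries (-1.05 ± 0.24, limma adjusted p = 0.00558, lost without mouse 2 or 4 at 0.0508 and 0.0555, and 0.00135 to 0.0555 over all alternatives).

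The authors' deposited table compares positive with negative libraries and lists 444 features with adjusted p-values of at most 0.00976. In the authors' deposited table a single member is present, Ifitm3, with a log2 fold change of -3.62 and an adjusted p of 1.69e-15. Tlr3 stands in the authors' deposited table with a log2 fold change of 0.80 and an adjusted p of 0.000922. The signs of Ifitm3 and Tlr3 there are those of positive over negative libraries in the FPKM values.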

How the data were processed

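RNA was measured in 16 libraries of flow-sorted astrocytes, 4 per group, by RNA sequencing. Per the labels' protocols, a Qiagen micro kit gave the RNA and a NuGEN kit the libraries. Per the submitters' processing notes, the tools were Cufflinks, Cuffnorm, HTSeq 0.6.1p1, Bowtie2 2.2.3, TopHat2 2.0.11, DESeq2 and FastQC, on build GRCm38, and no roles are given. The main table holds FPKM values that the authors deposited; a scaling between libraries by Cuffnorm is possible and its effect was checked with a median-of-ratios rescaling. The deposited comparison table holds, per the file headers, log2 fold changes, their standard errors, normalized mean signal values, test scores and p-values before and after adjustment. Read depth is unknown, so no counting interval is given and the 4 replicates set the precision.

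The fit was limma 3.58.1 (R 4.3.3) on log2(FPKM + 1) with trended empirical Bayes moderation and a coefficient for each group of the 16 libraries. A feature was tested if 4 or more libraries had 1 FPKM or more, p-values were adjusted over all of them, and the method was tested on simulated data. Per the labels a mouse number names the animal, so it pairs the libraries; the fit had no block for it, which is one of the alternatives. Deviations from group means correlated at 0.036 on average over 24 same-mouse pairs (-0.013 to 0.092) and at -0.012 over 72 other pairs. Alternatives were the rescaling, a pseudocount of 0.1, no filter or one at 5 FPKM, only the groups compared, the mouse as a block, and leaving out each library or mouse.

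The members, pathway lists, markers and motifs were chosen with earlier results of these data known. Values per library are printed for members called in any of 6 comparisons and averaging 2 FPKM or more in a group; up to 3 genes per other list and comparison were named by size of change with the same minimum. Gene positions are from GENCODE vM21 (GRCm38), and promoter stretches from RefSeq.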

Additional observations from a re-analysis of the deposited data

Results flagged for a closer look

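In the negative spinal cord group the H2-K1 level of mouse 2, 35.2 FPKM, lay far from the other 3 libraries, which were between 18.4 and 20.7 FPKM. Its gap to the nearest library was 0.863 of the group's range, above Dixon's critical value for 4 values. This was 1 of 44 groups tested, and chance alone marks about 1 in 20. The B2m library of the same mouse and group, at 390 FPKM, was inside the range of its group.

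The B2m difference between positive and negative libraries differed between the regions, with a difference of 1.26 ± 0.32 (SE) on the log2 scale between the spinal cord contrast of -0.32 and the thalamus contrast of -1.58 (limma adjusted p = 0.0495). The call was lost in 19 of 25 alternative settings, so it lies at the threshold, and the sign changed in none (0).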

How the results depend on the processing

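No member that was called changed sign under any alternative (0 of the called results). With a 5 FPKM filter, which leaves 16 members tested, 3 members were called in the thalamus and 1 in the comparison of negative libraries between regions, and 271 features were called for the difference between regions. That difference had 0 members called under the median-of-ratios rescaling, the pseudocount of 0.1, no filter and the 5 FPKM filter, where the limma adjusted p of B2m was 0.0515, 0.0583, 0.0713 and 0.0512. With only the groups compared, 4227 features and 6 members were called between regions in positive libraries, and 353 features and 0 members in negative ones. That setting gave no value for the mean and the difference, which use all groups. Leaving out a library or mouse gave 2 to 6 members and 1818 to 3895 features called in the spinal cord, 3 to 7 members and 2174 to 4784 features in the thalamus, 6 to 10 members and 4098 to 6841 features over both, and 0 to 2 members and 66 to 615 features for the difference. Between regions it gave 2 to 4 members and 351 to 1398 features in positive libraries and 1 to 3 members and 882 to 1752 features in negative ones. Over the mean of both regions, Tap2 lost its call without mouse 3 or 4, Jak2 without mouse 1, 2 or 3, Jak1 without mouse 4 and Oasl2 without mouse 1 or 2. With the mouse as a replicate block, Jak1 between regions in positive libraries (adjusted p = 0.0521) was the only call of a member that was lost, and the B2m difference between regions had a limma adjusted p of 0.0216. The causes were not tested. Low FPKM limits the genes under the filter, whose changes could not be tested.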

Other observations

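Class II antigen presentation genes, which in the brain mark microglia and other phagocytes, were mostly low. Of all features, 19.6%, 25.2% and 38.6% were called in the spinal cord, in the thalamus and over the mean of both regions. Of 9 listed class II genes 6 were under the filter and 3 were tested, and 0 were called within either region. Over the mean of both regions 1 was higher in positive libraries, H2-DMb2, at 1.56 ± 0.293 FPKM in positive against 0.815 ± 0.343 FPKM in negative spinal cord libraries and at 2.53 ± 0.744 FPKM in positive against 1.35 ± 0.448 FPKM in negative thalamus libraries (SD, n = 4; log2 fold change 0.54 ± 0.15, SE, limma adjusted p = 0.0106, lost in 2 of 24 alternative settings, 0.00395 to 0.112 over all). The invariant chain gene Cd74 stayed at or below 0.342 FPKM and was listed at 0 in 9 of 16 libraries.

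Of the untested members, Psmb8 and Nlrc5 were near 0 except in a few negative libraries. Others differed, as Bst2 and Psmb9 each reached 1 FPKM in 1 positive thalamus library as well as in negative ones. Psmb8 was at 3.69 FPKM in the negative spinal cord library of mouse 1 and at most 0.195 FPKM in the 15 others. Nlrc5 was at 6.43 FPKM in the negative thalamus library of mouse 1 and at 2.28 FPKM in the negative spinal cord library of mouse 2. Cxcl10, an interferon-induced chemokine gene outside the member set, reached 9.12 FPKM and was listed at 0 in 5 of 16 libraries. These genes were chosen after their values were seen.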
